A study of Mus musculus with 8 samples.

Results

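The heat shock chaperones described here are 10 genes: the inducible HSP70 genes Hspa1a and Hspa1b, their partners Hsph1 and Dnajb1, the small heat shock protein gene Hspb1, the HSP90 genes Hsp90aa1 and Hsp90ab1, the constitutive HSP70 gene Hspa8, and the mitochondrial chaperonin genes Hspd1 and Hspe1. They were measured by every probe set (a group of short array probes for 1 transcript) whose single gene symbol in the platform annotation is that of a member. This gave 20 probe sets for 9 of the 10 genes, among 22626 probe sets tested on the arrays, and Hsp90ab1 was not analysed here. Expression was compared between BSKO mice, which lack the NAD-dependent deacetylase SIRT1 in the brain, and WT littermates, in whole brain of C57/B6 males aged 3 months. Each genotype had 4 biological replicates, each on its own Affymetrix Mouse430A_2 array. The sources used here do not name the promoter that drives the deletion, nor whether the WT littermates carry any of its alleles. The deposited values are log2 values centred on the median of each probe set over the 8 arrays, so a value tells how an array differs from the others and not how strongly a gene is expressed, and the labelled tissue could not be checked against its markers by level.

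Heat shock proteins are chaperones: they bind unfolded or aggregation-prone proteins and help them to fold, refold or be degraded. HSP70 works in cycles of ATP hydrolysis in which J-domain proteins such as DNAJB1 deliver the client and HSP110 proteins such as HSPH1 exchange the nucleotide, and HSP90 takes over later steps for kinases and receptors. In unstressed brain HSPA8 carries most of the constitutive HSP70 work, whereas Hspa1a and Hspa1b are induced strongly when the transcription factor HSF1 binds heat shock elements in their promoters. SIRT1 is known from other work to deacetylate HSF1 and prolong its binding to those elements. For the comparison by role, Hspa1a, Hspa1b, Hsph1, Dnajb1, Hspb1 and Hsp90aa1 were taken as the 6 inducible members, and Hsp90ab1, Hspa8, Hspd1 and Hspe1 as the 4 constitutive ones, although Hspd1 and Hspe1 also respond to stress.

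The promoters are shown because HSF1 binds heat shock elements in promoters, and because the 2 genes with the largest differences have nearly the same promoter. The roles of the members were taken from textbook knowledge and not from these windows. RefSeq windows of assembly GRCm38.p6, from 250 bases before to 50 bases after an annotated start, were found for 7 of the 10 members, with 10 windows in all. Hspa1a and Hspa1b are neighbours on chromosome 17, and their windows share 296 of 300 bases (98.7%). Counted from 1 at the 5′ end, with the Hspa1a base first, the 4 substitutions are C44T, T47C, T249G and C276T. Heat shock elements are runs of the unit GAA in alternating orientation, and 2 such units 2 bases apart were searched as GAANNTTC or TTCNNGAA, each of which reads the same on both strands. Capitals mark every match. The windows, each 5′ to 3′ on the strand of its gene, are those of Hspa1a (chr17:34972107-34972406, minus strand), Hspa1b (chr17:34959189-34959488, minus strand), Hsph1 at the second of its annotated starts (chr5:149636266-149636565, minus strand), Hspb1 (chr5:135887669-135887968, plus strand) and Hspe1 (chr1:55087898-55088197, plus strand).
Hspa1a: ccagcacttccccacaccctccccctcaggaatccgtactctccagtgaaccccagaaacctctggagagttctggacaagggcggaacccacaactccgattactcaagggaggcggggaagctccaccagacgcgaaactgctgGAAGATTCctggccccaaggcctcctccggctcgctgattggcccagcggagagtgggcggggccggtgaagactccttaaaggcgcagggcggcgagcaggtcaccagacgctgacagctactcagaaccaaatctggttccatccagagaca
Hspa1b: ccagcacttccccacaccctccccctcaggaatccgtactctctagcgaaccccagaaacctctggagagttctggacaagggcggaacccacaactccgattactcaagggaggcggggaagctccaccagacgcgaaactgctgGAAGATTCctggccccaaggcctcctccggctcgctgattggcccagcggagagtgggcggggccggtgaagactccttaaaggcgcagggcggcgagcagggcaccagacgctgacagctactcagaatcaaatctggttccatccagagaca
Hsph1: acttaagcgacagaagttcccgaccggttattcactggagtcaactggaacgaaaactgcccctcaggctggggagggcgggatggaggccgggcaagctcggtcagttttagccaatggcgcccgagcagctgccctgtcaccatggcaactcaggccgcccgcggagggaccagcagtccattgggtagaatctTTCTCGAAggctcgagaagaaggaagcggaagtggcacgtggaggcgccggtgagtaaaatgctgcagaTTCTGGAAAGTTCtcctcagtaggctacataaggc
Hspb1: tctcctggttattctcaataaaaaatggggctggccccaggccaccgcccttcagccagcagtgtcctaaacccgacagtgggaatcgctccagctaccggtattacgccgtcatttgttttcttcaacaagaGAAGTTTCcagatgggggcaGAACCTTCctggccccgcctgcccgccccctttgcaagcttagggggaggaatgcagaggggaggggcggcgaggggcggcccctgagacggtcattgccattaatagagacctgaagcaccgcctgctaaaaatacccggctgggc
Hspe1: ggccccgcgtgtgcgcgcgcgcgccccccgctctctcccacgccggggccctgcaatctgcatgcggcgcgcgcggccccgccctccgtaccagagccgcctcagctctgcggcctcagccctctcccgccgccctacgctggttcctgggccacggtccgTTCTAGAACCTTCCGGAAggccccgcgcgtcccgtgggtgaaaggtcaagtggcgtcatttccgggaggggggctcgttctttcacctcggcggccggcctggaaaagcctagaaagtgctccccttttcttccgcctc

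A pair of units was present in 7 of the 10 member windows, for 6 of 7 genes, and in 15.1% of the 32851 promoter windows of the same length in the table. The match in Hspa1a and in Hspa1b is the same, at -104 to -97 from the start, and none of the 4 substitutions lies in it. A further unit in the same spacing and alternation, which contains 2 overlapping pairs, was present in 4 member windows, for Hsph1, Hspd1 and Hspe1, and in 0.603% of all windows. Hspd1 and Hspe1 are neighbours that are transcribed away from each other, and the matches at -89 to -72 of Hspe1 lie on the other strand of the Hspd1 window. Windows of this kind overlap, so the counts are not independent. Neither window of Dnajb1 held a match. These matches describe letters in the windows and do not show binding.

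BSKO 2 stood apart from the other 7 arrays, and group differences are therefore given with and without it. The SD of the centred values over all tested probe sets on BSKO 2 was 0.831, against 0.150 to 0.314 on the rest. The 5' probe set of beta-actin minus the 3' one, a measure of RNA integrity, came to -2.44 on BSKO 2 against -0.104 to 0.489 elsewhere, and for Gapdh it was -2.43 against -0.075 to 0.095. Sirt1, the targeted gene, gave 0.0041, -0.0041, 0.082 and 0.29 on WT 1 to 4 and 0.076, -1.46, -0.20 and -0.059 on BSKO 1 to 4 on its probe set 1418640_at (limma adjusted p = 0.549, and 0.428 without BSKO 2). BSKO 1 lay within the WT range. The deleted stretch of the gene and the stretch this probe set covers are not given in the sources used here, so these values check no label. No array pair held identical values. With 8 arrays, 7 of 22626 probe sets (0.0309%) had an adjusted p under 0.05 by limma with Benjamini-Hochberg adjustment over all of them. None of the 20 chaperone probe sets was among them. An unadjusted limma p under 0.05 was reached by 6 of the 20 (30%), all lower in BSKO, 2 of them of Hspa1b. Of all 22626 probe sets, 1181 reached it and were lower in BSKO, and 2440 (10.8%) reached it in either direction. Without BSKO 2, 257 probe sets (1.14%) were called as lower in BSKO and 3 of the 20 chaperone probe sets were among them, all of Hspa1b. The count over all probe sets without BSKO 2, 369 in both directions, ran from 19 to 1069 when 1 further array was left out. Of the 20, 18 were lower in BSKO on average in each fit, where 46.5% of all probe sets were lower with 8 arrays and 47.8% without BSKO 2. The number of arrays limits the precision, and in whole tissue fewer cells of a type and less RNA per cell cannot be told apart.

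**Figure D1:**
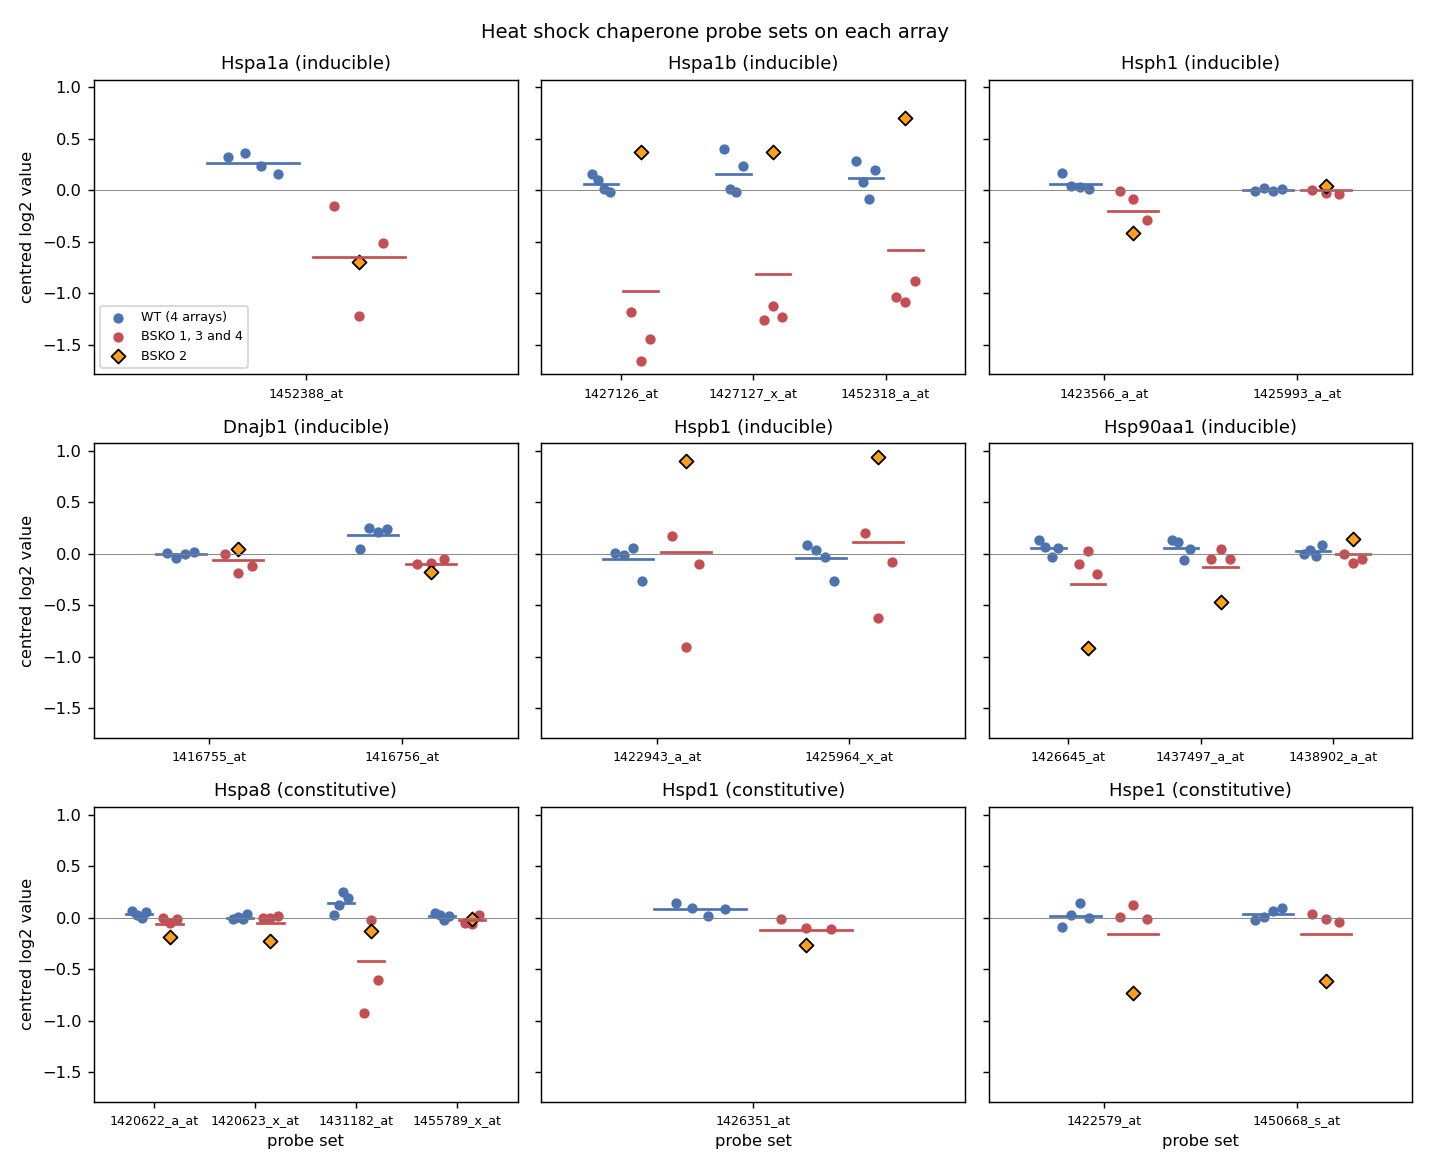
Centred log2 value (y axis) of each probe set (x axis) of the 9 measured chaperone genes on the 4 WT and 4 BSKO arrays, with BSKO 2 as a diamond and short lines for the group means. For Hspa1b, BSKO 1, 3 and 4 lie between -1.66 and -0.89, below every WT array, and BSKO 2 lies between 0.37 and 0.70, while all 4 BSKO arrays of Hspa1a lie below WT.

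Hspa1b, which encodes an HSP70 made in quantity after heat shock, oxidative stress and ischaemia, was lower on BSKO 1, 3 and 4 than on every WT array and was high on BSKO 2. On probe set 1427126_at the centred log2 values were 0.16, 0.099, 0.014 and -0.014 on WT 1 to 4 and -1.18, 0.37, -1.66 and -1.44 on BSKO 1 to 4. On 1427127_x_at they were 0.40, 0.015, -0.015 and 0.23 in WT and -1.27, 0.37, -1.13 and -1.24 in BSKO. On 1452318_a_at they were 0.29, 0.083, -0.083 and 0.19 in WT and -1.03, 0.70, -1.09 and -0.89 in BSKO. Thus the 3 probe sets agreed on which arrays were low, and on 1427126_at and 1452318_a_at BSKO 2 lay above all 4 WT arrays, while on 1427127_x_at it lay below WT 1 alone.

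Without BSKO 2, Hspa1b fell in BSKO on each probe set. The log2 difference was -1.49 (SE 0.11, adjusted p = 0.00618 by limma) on 1427126_at, -1.37 (SE 0.11, adjusted p = 0.00791) on 1427127_x_at and -1.12 (SE 0.10, adjusted p = 0.00866) on 1452318_a_at. By their unadjusted p they ranked 4, 5 and 11 of 22626 in that fit. As the mean of its 3 probe sets, Hspa1b was 0.11 ± 0.13 (SD, n = 4) in WT and -1.21 ± 0.068 (SD, n = 3) on BSKO 1, 3 and 4, which is 2.51-fold lower. At this level 266 of 12393 genes (2.15%) were called in that fit, in either direction, and Hspa1b was the single measured member among them (adjusted p = 0.00166). With all 8 arrays the BSKO mean was -0.79 ± 0.85 (SD, n = 4) and the difference was -0.90 (SE 0.37). This missed the threshold (limma adjusted p = 0.390, unadjusted p = 0.0364). The exact permutation p was 0.143 (two-sided, of 70 arrangements). At the level of genes 9 of 12393 (0.0726%) were called with 8 arrays, and no member was. The call of Hspa1b as a gene without BSKO 2 was lost when eBayes was run with trend and robust settings, at the same difference (limma adjusted p = 0.288, in a range of 0.00118 to 0.288 over 19 fits, of which 18 called it). A replicate block kept that call but lost those of the 3 probe sets.

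Hspa1a, the neighbouring gene for an HSP70 of nearly the same protein sequence, was lower on all 4 BSKO arrays than on all 4 WT arrays, BSKO 2 included. Its probe set 1452388_at gave 0.32, 0.36, 0.23 and 0.15 on WT 1 to 4 and -0.15, -0.70, -1.23 and -0.51 on BSKO 1 to 4. BSKO 3 was the lowest array and BSKO 1 the closest to WT. The mean was 0.27 ± 0.094 (SD, n = 4) in WT and -0.65 ± 0.45 (SD, n = 4) in BSKO, a log2 difference of -0.92 (SE 0.21) or 1.89-fold lower. This missed the threshold among all 22626 probe sets with 8 arrays (limma adjusted p = 0.198) or without BSKO 2 (-0.90, SE 0.22, limma adjusted p = 0.0881). By exact permutation p = 0.0286, which no arrangement of 4 against 4 arrays can go below, unadjusted for the 9 genes tested this way. The gene means of Hsph1, Dnajb1, Hspa8 and Hspd1 gave the same permutation p with 8 arrays. Without BSKO 2 and BSKO 1, the gene passed over all genes (-1.14, limma adjusted p = 0.0249, in a range of 0.0154 to 0.202 over 16 fits without BSKO 2).

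The 2 genes did not move together on every array. Hspa1a minus Hspa1b, on the centred log2 scale of gene means, ranged from 0.017 to 0.30 in WT. BSKO 1, 3 and 4 gave 1.01, 0.064 and 0.68, whereas BSKO 2 gave -1.18. So on BSKO 2 Hspa1a was low and Hspa1b high, and on BSKO 1 Hspa1b was low and Hspa1a close to WT. The BSKO 2 values, -0.70 and 0.48, are smaller in size than the SD of that array over all tested probe sets (0.831). How far the probes of each gene also bind the transcripts of the other is not given in the sources used here, and the split of signal between them is uncertain.

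Among the cochaperones, Hsph1 and Dnajb1 each had 1 probe set on which the genotypes did not overlap and 1 on which they did. Hsph1, the HSP110 nucleotide exchange factor, gave 0.17, 0.043, 0.031 and 0.011 on WT 1 to 4 and -0.011, -0.42, -0.086 and -0.29 on BSKO 1 to 4 on probe set 1423566_a_at, a log2 difference of -0.26 (SE 0.12, limma adjusted p = 0.463), and of -0.19 without BSKO 2 (limma adjusted p = 0.263). Its other probe set, 1425993_a_at, stayed between -0.033 and 0.042 on all 8 arrays. Dnajb1, the J-domain protein that stimulates HSP70, gave 0.045, 0.25, 0.22 and 0.24 in WT and -0.093, -0.18, -0.088 and -0.045 in BSKO on 1416756_at. That difference was -0.29 (SE 0.093) and missed the threshold (limma adjusted p = 0.341, and -0.26 with adjusted p = 0.115 without BSKO 2). The other Dnajb1 probe set, 1416755_at, differed by -0.058 (SE 0.092), and by -0.095 without BSKO 2. For both genes the difference on the separating probe set was smaller than that of Hspa1a, and BSKO 2 was the lowest array on it.

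In all, 5 of the 20 chaperone probe sets (25.0%) had every BSKO array below every WT array, against 1508 of all tested probe sets (6.66%). These were 1 each of Hspa1a, Hsph1, Dnajb1, Hspa8 and Hspd1. Without BSKO 2 there were 8 (40.0%), with the 3 of Hspa1b added, against 2331 of all probe sets (10.3%). Probe sets of 1 gene share their transcript, so the 20 are not independent.

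Hspb1 and Hsp90aa1, the other 2 inducible members, had extreme values on BSKO 2, and Hspb1 on BSKO 3 too. Hspb1, a small heat shock protein that binds unfolding clients without ATP, gave 0.0083, -0.0083, 0.055 and -0.26 in WT and 0.18, 0.90, -0.90 and -0.10 in BSKO on 1422943_a_at. BSKO 2 was the highest of the 8 arrays and BSKO 3 the lowest, so the genotypes overlapped, and both held on 1425964_x_at. The Hspb1 gene mean differed by 0.11 (SE 0.31, limma adjusted p = 0.864) and, without BSKO 2, by -0.17 (limma adjusted p = 0.670). Hsp90aa1, the stress-inducible cytosolic HSP90, was lowest on BSKO 2 on 1426645_at (-0.91) and 1437497_a_at (-0.46) but highest there on 1438902_a_at (0.14). Its gene mean differed by -0.19 (SE 0.11, limma adjusted p = 0.489), and by -0.099 (limma adjusted p = 0.391) without BSKO 2.

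**Figure D2:**
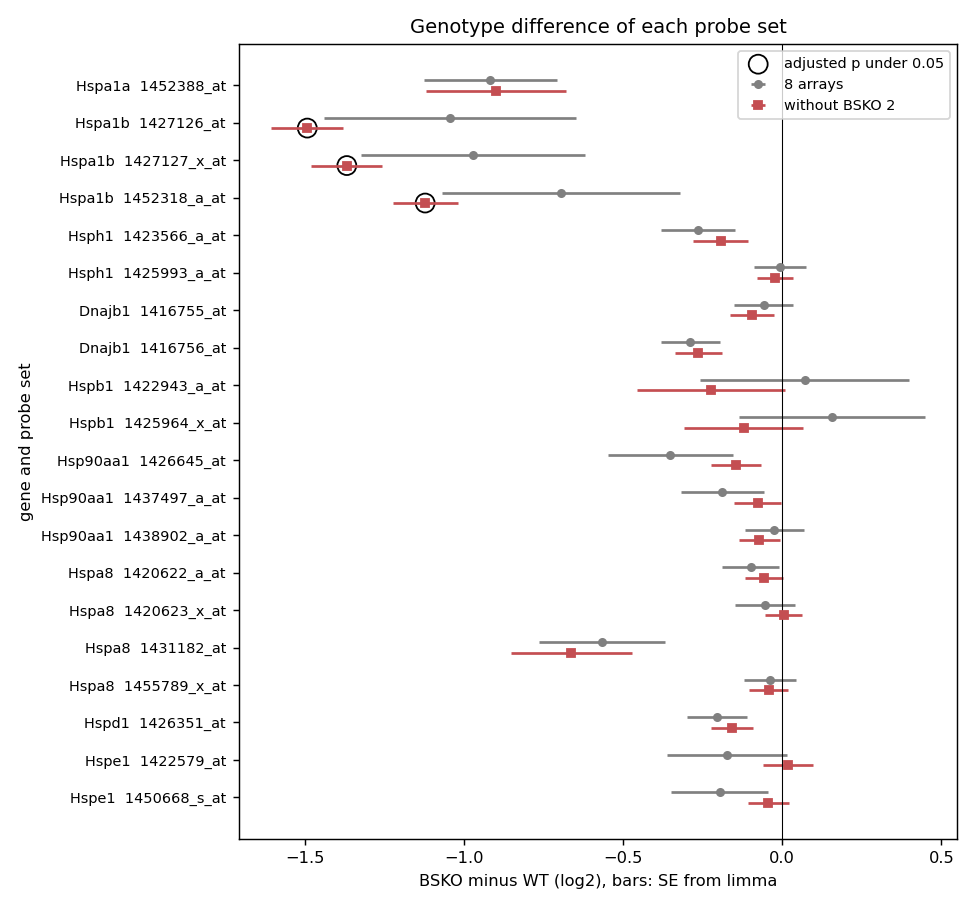
BSKO minus WT difference on the log2 scale (x axis) for each gene and probe set (y axis), with 8 arrays (circles) and without BSKO 2 (squares), bars showing the SE from limma and rings an adjusted p under 0.05. The 3 ringed points are the Hspa1b probe sets at -1.49, -1.37 and -1.12, and the SEs of Hspa1b are 0.35 to 0.40 with BSKO 2 and 0.10 to 0.11 without it.

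Of the constitutive members, Hspa8 was measured by 4 probe sets that disagreed in size. Hspa8 encodes the main cognate HSP70 of neurons, which also uncoats clathrin vesicles. On 1420622_a_at, 1420623_x_at and 1455789_x_at its differences with 8 arrays were -0.10, -0.054 and -0.039, each with an SE of 0.082 to 0.094, and without BSKO 2 they were -0.057, 0.0045 and -0.043. On 1431182_at it was -0.57 (SE 0.20, limma adjusted p = 0.376), with values of 0.022, 0.12, 0.25 and 0.19 in WT and -0.92, -0.13, -0.022 and -0.61 in BSKO. Without BSKO 2 the difference there was -0.66 (limma adjusted p = 0.121). On that probe set BSKO 1 and BSKO 4 were low and BSKO 3 was close to WT 1, which is another order of arrays than that of Hspa1a. The part of the transcript that each probe set covers is not given in the sources used here.

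Hspd1 and Hspe1, whose products HSP60 and HSP10 form the chaperonin of the mitochondrial matrix, had small differences. Hspd1 on 1426351_at gave 0.14, 0.094, 0.012 and 0.083 in WT and -0.012, -0.27, -0.10 and -0.11 in BSKO. The groups did not overlap, and the difference of -0.21 (SE 0.094) missed the threshold (limma adjusted p = 0.475, and -0.16 without BSKO 2, adjusted p = 0.235). Hspe1 was low on BSKO 2 alone, at -0.73 on 1422579_at and -0.61 on 1450668_s_at, where the other 7 arrays lay between -0.094 and 0.15. Its gene mean differed by -0.18 with 8 arrays and by -0.012 without BSKO 2 (limma adjusted p = 0.612 and 0.934).

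Inducible and constitutive members were set side by side by the median of their gene means, with no test over the lists. With 8 arrays 5 of 6 inducible genes and 3 of 3 measured constitutive genes were lower in BSKO, and without BSKO 2 all 9 were. The median difference was -0.18 for the inducible and -0.19 for the constitutive genes with 8 arrays, and -0.18 and -0.16 without BSKO 2. Over all 12393 genes it was 0.030 and 0.015, with 45.2% and 46.4% of genes lower. The inducible genes ranged from -0.92 (Hspa1a) to 0.11 (Hspb1), and the constitutive ones from -0.21 to -0.18. Without Hspa1a and Hspa1b, the other 4 inducible genes had a median of -0.16 with 8 arrays and -0.14 without BSKO 2. The inducible median was thus slightly above the constitutive one with 8 arrays and slightly below it without BSKO 2, and the larger single differences were those of Hspa1a and Hspa1b.

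On single arrays the inducible median ranged from 0.011 to 0.098 in WT and came to -0.048, -0.13, -0.45 and -0.13 on BSKO 1 to 4. The constitutive median was 0.030 to 0.073 in WT and -0.012, -0.27, -0.033 and -0.11 on BSKO 1 to 4. Inducible minus constitutive was therefore -0.042 to 0.058 in WT and -0.036, 0.14, -0.42 and -0.020 in BSKO, where BSKO 3 alone lay below and BSKO 2 alone above, and BSKO 1 and BSKO 4 lay within the WT range. By the mean over genes in place of the median, which gives Hspa1a and Hspa1b more weight, this difference was -0.029 to 0.10 in WT and -0.13, 0.37, -0.55 and -0.26 on BSKO 1 to 4, so that BSKO 1, 3 and 4 lay below every WT array and BSKO 2 above. Within replicates 1 and 2 Hspa1b differed by -0.51 and within replicates 3 and 4 by -1.29, where the first pair contains BSKO 2. For Hspa1a these values were -0.77 and -1.06.

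**Figure D3:**
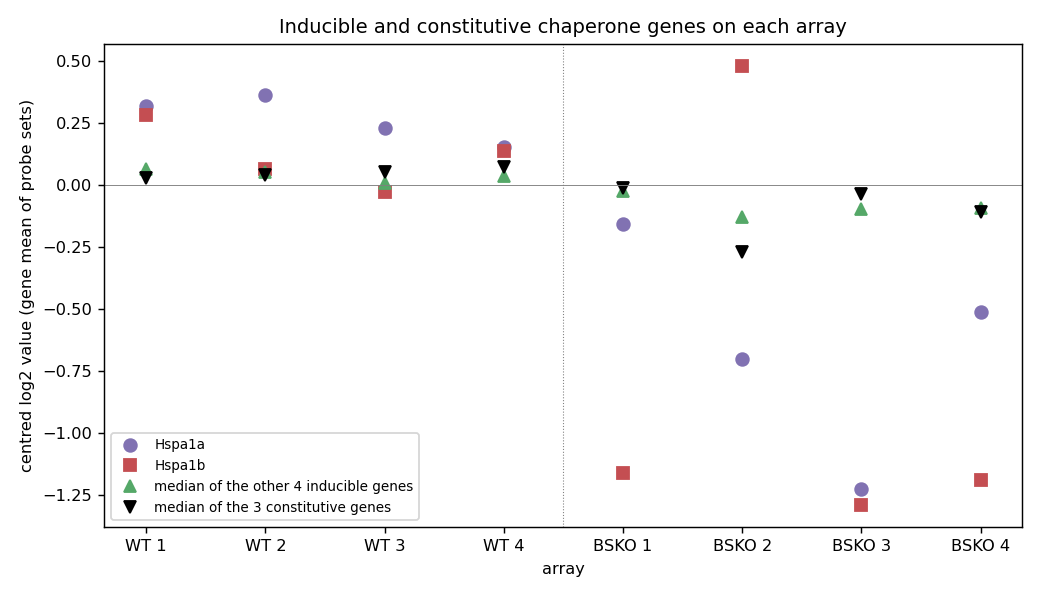
Centred log2 value averaged over the probe sets of a gene (y axis) on each array (x axis) for Hspa1a, Hspa1b, the median of the other 4 inducible genes and the median of the 3 measured constitutive genes. Hspa1b lies apart from the 2 medians on BSKO 1, 3 and 4, and on BSKO 2 Hspa1b and Hspa1a lie on opposite sides of 0, with a gap of -1.18.

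Beyond the members, 64 of 73 listed genes of the chaperone network were measured, by 126 probe sets, and none passed over all probe sets in either fit. As gene means, 5 of the 64 had an unadjusted limma p under 0.05 with 8 arrays and 11 without BSKO 2, against 1506 and 2632 of all 12393 genes. Their median difference was -0.066 with 8 arrays, with 42 lower and 22 higher in BSKO (65.6% lower, against 45.2% of all genes). Without BSKO 2 it was -0.024, with 39 lower and 25 higher (60.9%, against 46.4%). Among the 7 HSP70 and HSP110 relatives the smallest p values with 8 arrays were those of Hspa4 (-0.34, SE 0.19), an HSP110 protein, the mitochondrial HSP70 gene Hspa9 (-0.15, SE 0.095) and Hspa4l (-0.18, SE 0.11). Without BSKO 2 these were -0.14, -0.096 and -0.23. In that fit the smallest p of the list was that of the HSP70 gene Hspa2 (-0.30, SE 0.062, limma adjusted p = 0.0522), chosen after its values were seen. Hspa2 gave -0.022, 0.028, 0.14 and 0.022 on WT 1 to 4 and -0.25, 0.54, -0.25 and -0.29 on BSKO 1 to 4, so BSKO 2 was its highest array, as for Hspb1. Among the 16 J-domain genes Dnajc7 (0.30, SE 0.094) was higher and Dnajb6 (-0.19) and Dnajb4 (-0.41) were lower on average, with adjusted p values of 0.292 to 0.456 by limma. Without BSKO 2 they were at 0.25, -0.12 and -0.18, and the median of the J-domain genes moved from -0.13 to -0.010.

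The 6 other small heat shock protein genes had a median of 0.16 (0.11 without BSKO 2), on the opposite side of 0 from Hspa1a and Hspa1b. In each fit 4 of them were higher in BSKO and 2 lower. The lower ones were Cryab (-0.14) and Hspb8 (-0.038), at -0.084 and -0.20 without BSKO 2. Hspb3 (0.79, SE 0.33), Hspb7 (0.28, SE 0.11) and the lens crystallin gene Cryaa (0.22, SE 0.15) were their values of smallest p with 8 arrays, at 0.48, 0.20 and 0.12 without BSKO 2. The 17 cochaperone genes of HSP70 and HSP90 had a median of -0.056 (-0.045 without BSKO 2), with the HSP90 partner gene Chordc1 at -0.54 (SE 0.25), the HSP70-interacting protein gene St13 at -0.28 and the immunophilin gene Fkbp5 at -0.36. These values moved to -0.26, -0.12 and -0.14 when BSKO 2 was left out. On gene means Chordc1 had every BSKO array below every WT array, as did Hspa9, Dnajb6, Dnajb4 and Cct6a among the 64 genes. In the other direction, every BSKO array lay above every WT array for Dnajc7, Dnajb12, Hspb7 and Trap1. Of all tested probe sets, counted singly, 6.66% had every BSKO array below every WT array. The share over the gene means of all genes was not taken, so the 2 measures are not alike. Chordc1 missed the threshold (limma adjusted p = 0.428, and 0.159 without BSKO 2). The 8 genes of the cytosolic chaperonin TRiC had a median of -0.080 (-0.045 without BSKO 2), with Cct4 at -0.23, Cct2 at -0.23 and Cct6a at -0.091, and at -0.16, -0.083 and -0.090 without BSKO 2. The 7 other mitochondrial chaperone and protease genes had a median of 0.068 (0.078 without BSKO 2), with Trap1, the mitochondrial HSP90, at 0.32 (SE 0.11), the protease gene Lonp1 at 0.24 and the protease gene Clpp at 0.18, and at 0.26, 0.18 and 0.078 without BSKO 2. The factor Hsf1 itself was not analysed here. Of the 3 measured genes of its list, Hsf2, a second heat shock factor, differed by -0.62 (SE 0.23, limma adjusted p = 0.366), Hsbp1, an HSF1-binding protein, by -0.11 and Hsf4 by 0.30. Without BSKO 2, Hsf2 differed by -0.59, Hsbp1 by -0.033 and Hsf4 by -0.032, and Hsf4 on BSKO 2 alone was at 1.19.

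**Figure D4:**
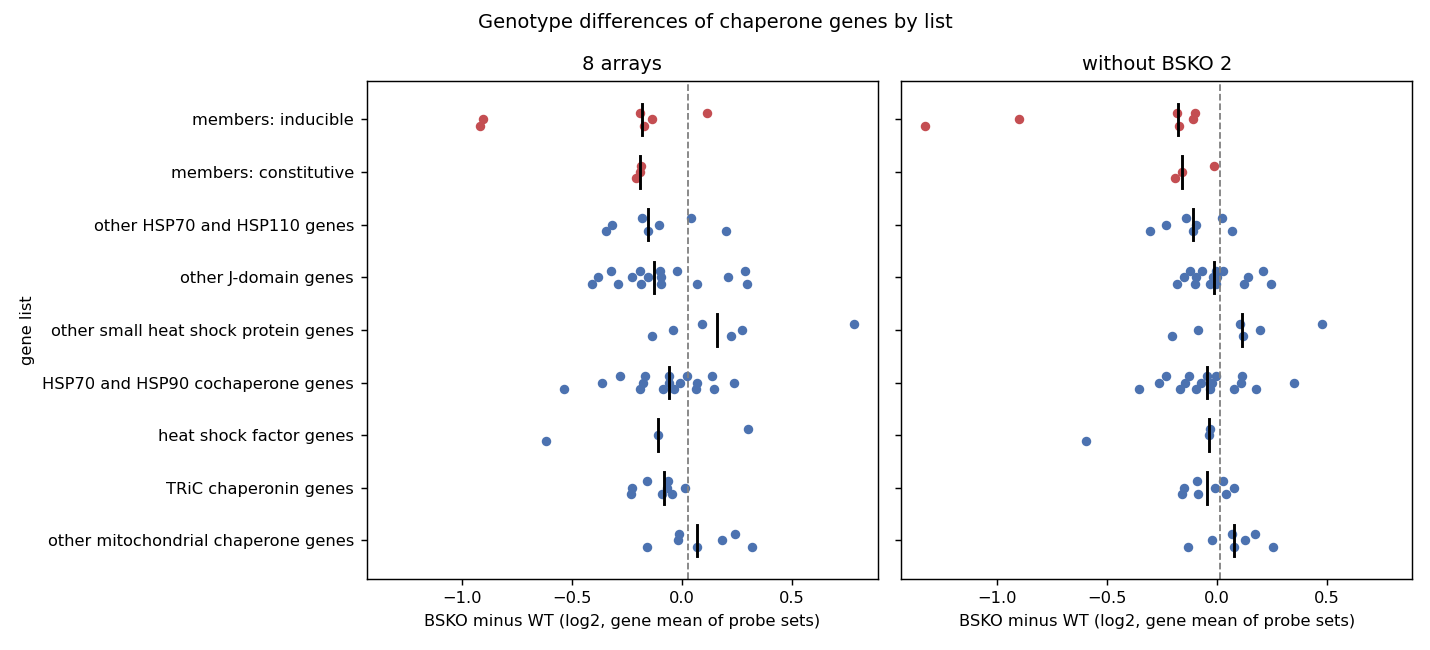
BSKO minus WT difference on the log2 scale, averaged over the probe sets of a gene (x axis), for every measured gene of the member groups (red) and of 7 other chaperone lists (blue) on the y axis, with 8 arrays at left and without BSKO 2 at right. Short black lines are list medians and the dashed line the median of all genes (0.030 and 0.015); Hspa1a and Hspa1b lie at -0.92 and -0.90 at left and at -0.90 and -1.33 at right.

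The genes whose pattern was most like that of Hspa1b were taken by Pearson correlation of gene means, members left out, as a description. Over the 8 arrays these were Pheta2 (r = 0.989), Hs3st1 (0.967), Stam (0.965), Ywhah (0.964) and Pkib (0.958), which were also high on BSKO 2 relative to the other BSKO arrays. Over the 7 arrays without BSKO 2 they were Cav1 (r = 0.997), Nabp1 (0.995), Tspan2 (0.995), Apaf1 (0.994) and Kctd4 (0.989), with 8-array values of -0.037 to 0.642. All points share the same arrays, and the r over 7 is taken over 3 BSKO and 4 WT arrays. On those arrays the genotypes did not overlap for Hspa1b, so r there largely restates the genotype difference and does not show shared regulation. Among the members, Hspa1b correlated over the 7 arrays with Hspd1 (0.912), Dnajb1 (0.893) and Hspa1a (0.855) most closely. Over 8 arrays these values were 0.215 with Hspd1, 0.639 with Dnajb1 and 0.553 with Hspa1a.

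Markers of other cell types and regions also differed between the arrays, and their part in the Hspa1a and Hspa1b results was not tested. Beside these genes, all 9 meningeal and fibroblast markers were lower in BSKO, and their median was 0.12 to 0.69 in WT and -0.51 to -0.22 in BSKO, BSKO 2 included. Among them Ogn (-1.39, limma adjusted p = 0.0300) and Lum (-0.85, limma adjusted p = 0.0455) fell without BSKO 2. All 7 striatal projection neuron markers were higher. Their medians were -1.94, -1.79, 0.0057 and -0.084 on WT 1 to 4 and 0.059, 0.14, 1.12 and 1.03 on BSKO 1 to 4. Replicates 1 and 2 thus lay below replicates 3 and 4 within each genotype. In WT the medians also split by replicate for the meningeal list (0.57 and 0.69, then 0.13 and 0.12) and the dentate gyrus list (0.69 and 0.75, then 0.014 and -0.0037). The source of this split was not tested. Of the 6 dentate gyrus markers 5 were lower (-0.0037 to 0.75 in WT, -0.32 to 0.12 in BSKO), and of the 10 astrocyte markers 9 were (0.031 to 0.15 in WT, -0.32 to 0.0067 in BSKO). Without BSKO 2 these counts were 6 of 6 and 8 of 10, while all 9 meningeal markers were again lower and all 7 striatal markers again higher. For endothelial markers 6 of 9 were lower, with medians of -0.023 to 0.073 in WT and -0.30 to 0.0098 in BSKO, where BSKO 2 was the lowest. Without BSKO 2, 4 of these were lower and 5 higher, with a median difference of 0.030. The list medians of neurons (-0.17 to 0.021 in BSKO), oligodendrocytes (-0.215 to 0.077) and microglia (-0.18 to 0.25) overlapped those of WT, as did choroid plexus (-1.92 to 0.49), where BSKO 4 was the low array. The blood list had its highest median, 0.76, on BSKO 2, the array that stood apart over all probe sets, against -0.24 to 0.28 on the others. Of the 11 activity-induced immediate early genes 5 were lower and 6 higher in BSKO with 8 arrays, 6 lower and 5 higher without BSKO 2, and Jun fell without BSKO 2 (-0.70, limma adjusted p = 0.0300). On centred values no marker can be said to be absent.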

How the data were processed

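Whole-brain RNA of 4 BSKO and 4 WT mice was measured on single-channel arrays. The deposited table holds log2 values that the authors made with RMA, per the submitters' processing notes; its version is not given in the sources used here. In 22689 of 22690 rows the median over the 8 arrays is within 1e-05 of 0, a centring that no label records and that removes levels. The 64 control probe sets were left out, no filter was set, and 22626 were tested; 20380 carried 1 symbol of the platform annotation, updated by gene number to RefSeq (20364 matched, 0 changed).

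The genotype contrast was fitted in R 4.3.3 by limma 3.58.1 (eBayes after lmFit, no covariate, two-sided, Benjamini-Hochberg adjustment over all probe sets or genes, threshold 0.05), with 8 arrays and without BSKO 2, and single genes by exact permutation. A gene's value is the mean of its probe sets. The scripts were tested on simulated data. Figures used matplotlib 3.10.9. Named beyond the members were, per list, the 3 genes of smallest p with 8 arrays and any called, and the 5 most correlated with Hspa1b. Hspa2, Dnajb12, Ogn, Lum and Jun were named after their values were seen. The members, lists, roles and tests were chosen with earlier results of these data known. Alternatives were quantile normalization, array centring, array weights, trend and robust settings, a replicate block, replicates 1 and 2 against 3 and 4 as a term, no cross-hybridising probe sets, a threshold of 0.10, 1 value per gene, and leaving out each array.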

Additional observations from a re-analysis of the deposited data

Results flagged for a closer look

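In groups of 4 arrays, 6 of the 40 tested (20 probe sets in each genotype) held an array far from the other 3 by Dixon's criterion, where chance flags about 1 in 20 groups. BSKO 2 was that array in 5 of the 6. It lay above the other BSKO arrays for Hspa1b, at 0.372 on 1427127_x_at (others -1.27 to -1.13) and at 0.703 on 1452318_a_at (others -1.09 to -0.887). It lay below them for Hspe1, at -0.734 on 1422579_at (others -0.0082 to 0.122) and at -0.613 on 1450668_s_at (others -0.040 to 0.035), and for Hspa8, at -0.227 on 1420623_x_at (others -0.0012 to 0.019). WT 1 lay below the other WT arrays for Dnajb1, at 0.045 on 1416756_at (others 0.217 to 0.250).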

How the results depend on the processing

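Array weights, which weigh down arrays of large residual spread, called 2617 of all probe sets with 8 arrays, 7 member probe sets in each fit, and 11 other chaperone probe sets with 8 arrays and 15 without BSKO 2. Quantile normalization called 678 of all probe sets, 1 of the members and 2 of the other chaperones with 8 arrays. With 8 arrays the count over all probe sets, 7 in the fit reported, was 108 with trend and robust settings, 84 with a term for replicates 1 and 2 against the others, 66 at a threshold of 0.10, 4 without cross-hybridising probe sets, and 0 to 369 when each array was left out (369 without BSKO 2, 0 without WT 4). Members called ranged from 0 to 3 in those left-out fits, with 3 without BSKO 2. Without BSKO 2, members called were 0 with trend and robust settings, 1 of 9 with 1 value per gene, and 3 to 4 when a further array was left out. Other chaperones were then 5 at a threshold of 0.10 and 0 to 1 with a further array left out.

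Hspa1a with 8 arrays was past the threshold with array weights (-0.81) and quantile normalization (-1.0), and ranged from -1.08 to -0.72 over left-out arrays. Without BSKO 2 it was past it with array weights (-0.81), quantile normalization (-0.83) and a threshold of 0.10 (-0.90), and ranged from -1.14 to -0.60. Hspa1b with 8 arrays was past it with array weights (-1.29) and ranged from -1.33 to -0.74, and without BSKO 2 it was not with trend and robust settings (-1.33). Hspb1 turned sign with array weights (-0.060) and without BSKO 2 (-0.17), within 8-array left-out values of -0.17 to 0.39; without BSKO 2 the left-out values were -0.38 to 0.099, the latter without BSKO 3. Without BSKO 2, Hspa8 turned on 1420623_x_at alone (0.0045), and Hspe1 on 1422579_at alone (0.019), without cross-hybridising probe sets (0.019), without BSKO 4 (0.0081) and without WT 3 (0.014), with left-out values of -0.041 to 0.014. The cause of these changes was not tested.

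Same-numbered arrays correlated at 0.056 to 0.140 after removal of group means, so the numbers were not taken as pairs. With a replicate block 0 of all probe sets were called with 8 arrays or without BSKO 2, so the 3 Hspa1b probe sets were not called, while Hspa1b as a gene mean without BSKO 2 was (-1.34, limma adjusted p = 0.0473). Without BSKO 2 the count over all probe sets was 3005 with array weights. Background correction and a filter on dim probe sets could not be run, because centred values carry no brightness.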
